A study of Mus musculus with 2 samples.

Results

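The heat shock proteins and their partners were taken as every gene whose symbol starts with Hsp and a family letter or digit, or names Hsph1, a class A, B or C DnaJ protein, a BAG protein from Bag1 to Bag6, or a CCT subunit from Cct2 to Cct8, with at least 20 raw unique molecular identifiers (UMIs) over both libraries. Of 31253 genes in the count matrices, 90 carried such a symbol and 77 reached the minimum. They divide into 52 cytosolic or nuclear members, 9 mitochondrial members, 14 members of the endoplasmic reticulum (ER) and 2 with no compartment assigned, among them Dnajc4. The member nearest above the minimum was Hspa1l with 38 UMIs, and Dnajc22 with 18 and Dnajb3 with 16 were nearest below it. Hspb1, the best known small heat shock protein, had 10 UMIs and is outside.

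Molecular chaperones bind unfolded stretches of other proteins. HSP70 proteins do this in cycles of ATP hydrolysis that DnaJ (HSP40) proteins start and that BAG and HSP110 proteins help to end by nucleotide exchange, while HSP90 acts on later folding states and the CCT ring and mitochondrial HSP60/HSP10 enclose their substrates. Heat shock factor 1 drives the inducible cytosolic members when unfolded protein accumulates, and the unfolded protein response drives ER members such as Hspa5. Enzymatic or mechanical dissociation of a tissue is known to induce Hspa1a and Hspa1b along with the Fos, Jun and Egr1 early genes.

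The cells came from mouse gliomas. They were live CD45.2+CD45.1- sorted cells, named endogenous immune cells in the labels, in a series titled for adoptively transferred macrophages in glioblastoma. The EM library is labelled as tumour treated with EM, with a time of 72 h, and the PBS library as tumour treated with phosphate-buffered saline (PBS), with no time; the labels do not expand EM, and give no animal number, strain, age or glioma line. The BD Rhapsody platform tags each captured transcript with a cell barcode and a UMI. With 1 library per group no test was possible. Ratios are log2 of EM over PBS CPM (a gene's UMIs scaled to a class total of 1000000). Each interval of a CPM or ratio is an exact 95% interval for counting error only, which holds no variation between cells or animals. It is too narrow where few cells hold most UMIs of a gene.

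The EM library kept 7967 of 8039 barcodes with a median of 2016 UMIs per cell, and the PBS library kept 7756 of 8333 with a median of 4303; 66 barcodes occurred in both. Cells were gated into classes from fixed markers, and 4 classes had at least 100 cells in each library: T cells (4853 in EM and 3988 in PBS), natural killer (NK) cells (521 in EM and 222 in PBS), monocytes/macrophages (422 in EM and 1340 in PBS) and microglia (193 in EM and 114 in PBS). Gated classes carried their own markers among their leading genes. Median depth per cell differed most for microglia, with 899 UMIs in EM and 7866 in PBS, and for monocytes/macrophages, with 1171 in EM and 9570 in PBS. Clusters made without the chaperone genes showed that NK cells of both libraries sat in cluster 4, while microglia sat mainly in cluster 15 in EM and cluster 18 in PBS, and monocytes/macrophages mainly in clusters 12 and 11 in EM and in cluster 3 in PBS. Xist stood at 402 CPM in EM T cells and 3.79 CPM in PBS T cells, and the Y-linked Ddx3y at 4.51 CPM in EM and 176 CPM in PBS, so sex-linked transcripts, depth and treatment differ together between the libraries and cannot be told apart.

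Promoter sequences of some members whose windows hold a known stress element are shown first, to show where the element lies around the start of each gene. The window of Dnajb9, an ER member described below, held 0 matches to the ER stress element and is not printed. They are RefSeq windows of GRCm38.p6 from 250 bases before to 50 bases after the start of the gene, given 5′ to 3′ on the gene's strand. By these RefSeq starts the marked element lies before the gene in each except Hsph1. In Hsph1 it begins 36 bases after the start used here and so inside the gene. A second window of Hsph1, not printed, has another start, and the same element begins 15 bases after it. Gene coordinates given below come from another annotation (GENCODE). In it Hspa5 starts earlier, at 34771970, so by that start its element lies inside the gene. Capitals mark the element: for Hspa1a 2 units of the heat shock element (GAANNTTC, or TTCNNGAA on the other strand), for Hsph1 and Hspe1 3 units (GAANNTTCNNGAA or TTCNNGAANNTTC), and for Hspa5 and Hsp90b1 the ER stress element (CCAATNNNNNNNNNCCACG or its reverse complement). Hspa1a lies at chr17:34972107-34972406 on the minus strand, Hsph1 at chr5:149636287-149636586 on the minus strand, Hspe1 at chr1:55087898-55088197 on the plus strand, Hspa5 at chr2:34771840-34772139 on the plus strand and Hsp90b1 at chr10:86705395-86705694 on the minus strand.
Hspa1a: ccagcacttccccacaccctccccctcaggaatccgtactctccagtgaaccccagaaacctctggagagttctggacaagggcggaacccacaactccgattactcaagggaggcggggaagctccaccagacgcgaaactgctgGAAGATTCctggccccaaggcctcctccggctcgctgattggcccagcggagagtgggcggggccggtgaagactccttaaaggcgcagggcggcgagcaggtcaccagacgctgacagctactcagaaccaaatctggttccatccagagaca
Hsph1: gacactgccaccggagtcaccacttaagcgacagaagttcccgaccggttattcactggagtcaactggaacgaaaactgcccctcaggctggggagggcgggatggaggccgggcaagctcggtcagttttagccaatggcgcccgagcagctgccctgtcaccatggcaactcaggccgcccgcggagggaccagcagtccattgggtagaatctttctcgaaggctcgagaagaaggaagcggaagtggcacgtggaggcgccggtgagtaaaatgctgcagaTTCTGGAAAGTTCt
Hspe1: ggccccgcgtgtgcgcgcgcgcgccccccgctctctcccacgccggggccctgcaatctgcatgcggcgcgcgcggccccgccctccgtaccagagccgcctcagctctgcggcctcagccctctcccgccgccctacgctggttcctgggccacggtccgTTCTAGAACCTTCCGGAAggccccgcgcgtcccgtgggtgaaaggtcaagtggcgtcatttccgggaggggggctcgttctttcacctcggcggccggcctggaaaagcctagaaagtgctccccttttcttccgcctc
Hspa5: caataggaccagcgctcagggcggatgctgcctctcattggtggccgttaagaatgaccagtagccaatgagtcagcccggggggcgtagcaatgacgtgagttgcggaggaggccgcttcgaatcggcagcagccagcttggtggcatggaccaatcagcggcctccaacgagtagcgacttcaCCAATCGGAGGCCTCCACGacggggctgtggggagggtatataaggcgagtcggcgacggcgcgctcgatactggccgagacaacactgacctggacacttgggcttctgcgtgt
Hsp90b1: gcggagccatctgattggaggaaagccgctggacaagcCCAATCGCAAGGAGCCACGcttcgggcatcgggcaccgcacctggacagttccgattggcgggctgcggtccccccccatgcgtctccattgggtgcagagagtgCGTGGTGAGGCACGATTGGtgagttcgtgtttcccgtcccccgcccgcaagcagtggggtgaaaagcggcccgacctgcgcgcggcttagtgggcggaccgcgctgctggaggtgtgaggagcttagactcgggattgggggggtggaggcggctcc

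A window was found for 63 of the 77 members. The 3-unit heat shock element was present in the windows of 4 members, Hsph1, Hspd1, Hspe1 and Dnajb6, against 0.603% of all 32851 windows. The 2-unit form, which is part of the 3-unit form, was present in 17 members, 14 of them cytosolic, against 15.1% of all windows. The ER stress element was present in 3 members, all of the ER (Hspa5, Hsp90b1 and Dnajc3), against 0.119% of all windows. Hspe1 and Hspd1 are divergent neighbours, and the Hspe1 stretch holds overlapping matches. Hspa1a and Hspa1b, adjacent genes for the same inducible HSP70, were identical at 296 of 300 window positions, and their transcripts aligned at 84.3% identity end to end; how the upstream counting divided reads between them is not given in the sources used here, so their sum is given beside each. A match is a string of letters in a window, not a measured binding site.

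Chaperone transcripts took a similar share of all UMIs in both libraries. The 77 members made up 1.11% of UMIs in EM T cells and 1.04% in PBS T cells, 1.17% in EM and 0.947% in PBS NK cells, 0.916% in EM and 0.873% in PBS monocytes/macrophages, and 1.08% in EM and 0.965% in PBS microglia. Hsp90ab1, Hspa5, Hspa8, Hsp90b1 and Hsp90aa1 held 51.8% of the member UMIs, a share of counts that is not scaled to transcript length. Single members differed in both directions.

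In T cells 74 members had at least 20 UMIs, of which 3 were at least 2-fold higher in EM (Hspa1b, Hspa1a and Dnajb9) and 4 at least 2-fold lower (among them Hspb8, Cct6b and Bag2). Across all genes tested in T cells 5.19% were at least 2-fold higher and 11.5% at least 2-fold lower, beside 4.05% and 5.41% of the measured members. In NK cells 57 members were measured, with 2 past 2-fold higher (Hspa5 and Hsph1; all genes 5.25%) and 2 past 2-fold lower (Dnajc18 and Dnajb14; all genes 7.5%). Monocytes/macrophages had 69 measured members, 2 past 2-fold higher (Hspa1b and Hspa1a; all genes 9.45%) and 6 lower (Dnajc27, Dnajb5, Dnajc16, Bag4, Hspbap1 and Dnajc4; all genes 20.3%). Microglia had 57, with 3 higher (Bag1, Dnajc19 and Hspa13; all genes 8.26%) and 9 lower (Dnajc24, Hspa2, Bag3, Hspa1a, Dnajc16, Dnajc21, Dnajb1, Dnajc12 and Dnajb9; all genes 26.4%). The median ratio over genes with at least 20 UMIs in each library, an alternative to scaling by total UMIs, was -0.08 in T cells, -0.13 in NK cells, -0.04 in monocytes/macrophages and 0.28 in microglia on the log2 scale. With it subtracted, the splits of higher against lower members became 4 against 3 in T cells, 4 against 2 in NK cells and 1 against 13 in microglia.

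Of the medians by compartment, that of mitochondrial members in microglia lay furthest from the median of all genes. It ran from -0.01 to 1.10 over the alternative processing settings given at the end. Cytosolic, mitochondrial and ER members had median log2 ratios of -0.08, -0.14 and -0.11 in T cells, where the median gene was at -0.12. NK cells gave 0.08, 0.08 and -0.12 against -0.09 for all genes, monocytes/macrophages -0.07, 0.03 and -0.32 against -0.25, and microglia -0.12, 0.44 and -0.11 against -0.29. The median gene thus lay below 0 in each class. Counts of members or list genes by sign alone, here and below, are to be read beside that median. Each compartment held members of both signs in each class, and the plot of members by compartment shows a few members far from a dense middle.

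**Figure D1:**
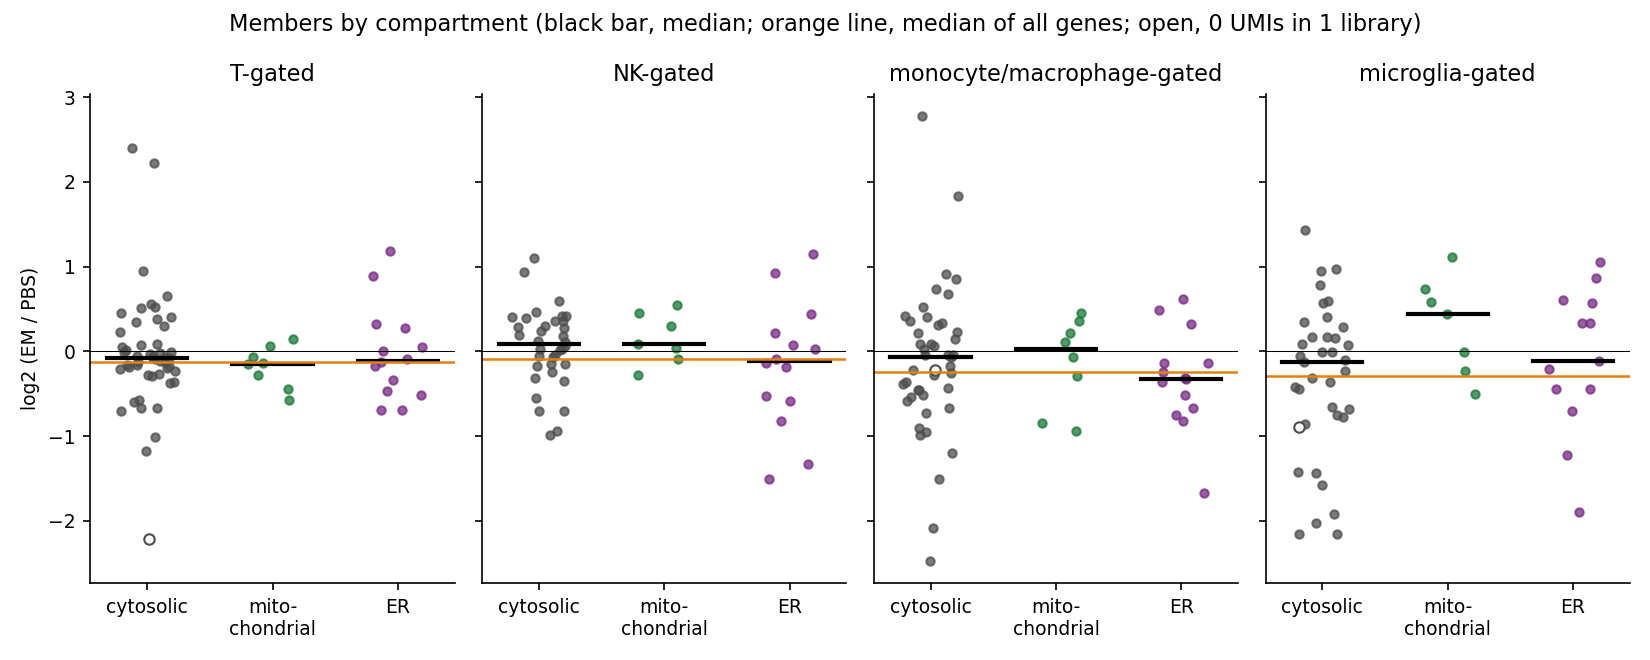
Log2 ratio of EM over PBS CPM for each member measured in a class, by compartment, in T, NK, monocyte/macrophage and microglia cells; the black bar is the median of the members, the orange line the median of all genes measured in that class, and open points are members with 0 UMIs in 1 library, drawn at their floor. The median furthest from the orange line is that of mitochondrial members in microglia, which took both signs over the alternative processing settings. Hspa1a and Hspa1b stand highest in T cells and monocytes/macrophages.

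The inducible HSP70 genes Hspa1a and Hspa1b were the members with the highest ratios in T cells and in monocytes/macrophages. In T cells Hspa1a stood at 15.7 CPM (interval 13.6 to 18.1) in EM and 3.36 CPM (interval 2.63 to 4.24) in PBS, a log2 ratio of 2.23 with an interval of 1.83 to 2.64. Each later ratio is followed by its interval where one is given. Hspa1b stood at 26.2 CPM in EM and 4.97 CPM in PBS T cells, a log2 ratio of 2.40 (2.08 to 2.73). Summed, which does not depend on how reads were divided, the pair was at 42.0 CPM in EM and 8.34 CPM in PBS T cells, 5.03-fold higher. These are low levels, and the genes lie at chr17:34969190-34972156 and chr17:34956436-34959238 (GRCm38).

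Monocytes/macrophages carried more of both transcripts. Hspa1a was at 119 CPM in EM and 33.5 CPM in PBS, a log2 ratio of 1.83 (1.50 to 2.15), and Hspa1b at 81.1 CPM in EM and 11.8 CPM in PBS, a ratio of 2.78 (2.34 to 3.21). The sum was 200.3 CPM in EM and 45.3 CPM in PBS, 4.42-fold higher. The size depended on how cells were weighted: with each cell given equal weight the log2 ratios were 0.64 for Hspa1a and 0.87 for Hspa1b, and with every cell thinned to 1000 UMIs they were 1.41 and 1.23.

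Microglia had the opposite sign. Hspa1a was at 21.2 CPM, from 5 UMIs, in EM microglia and at 80.4 CPM, from 85 UMIs, in PBS microglia, a log2 ratio of -1.92 (-3.58 to -0.64). Hspa1b, at 21.2 CPM in EM and 26.5 CPM in PBS, gave -0.32 (-2.05 to 1.07), an interval that spans equality. The sum was 42.5 CPM in EM and 107 CPM in PBS, a log2 ratio of -1.33 (-2.43 to -0.40). NK cells held only 14 UMIs of the pair in EM and 5 in PBS, a ratio of 0.79 (-0.77 to 2.61), in which no difference was detectable at this depth. Dendritic cells, under the minimum of 100 cells with 161 in EM but 41 in PBS, held 65 UMIs (115 CPM) in EM and 2 UMIs (4.74 CPM) in PBS, a log2 ratio of 4.60 (2.69 to 7.68).

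**Figure D2:**
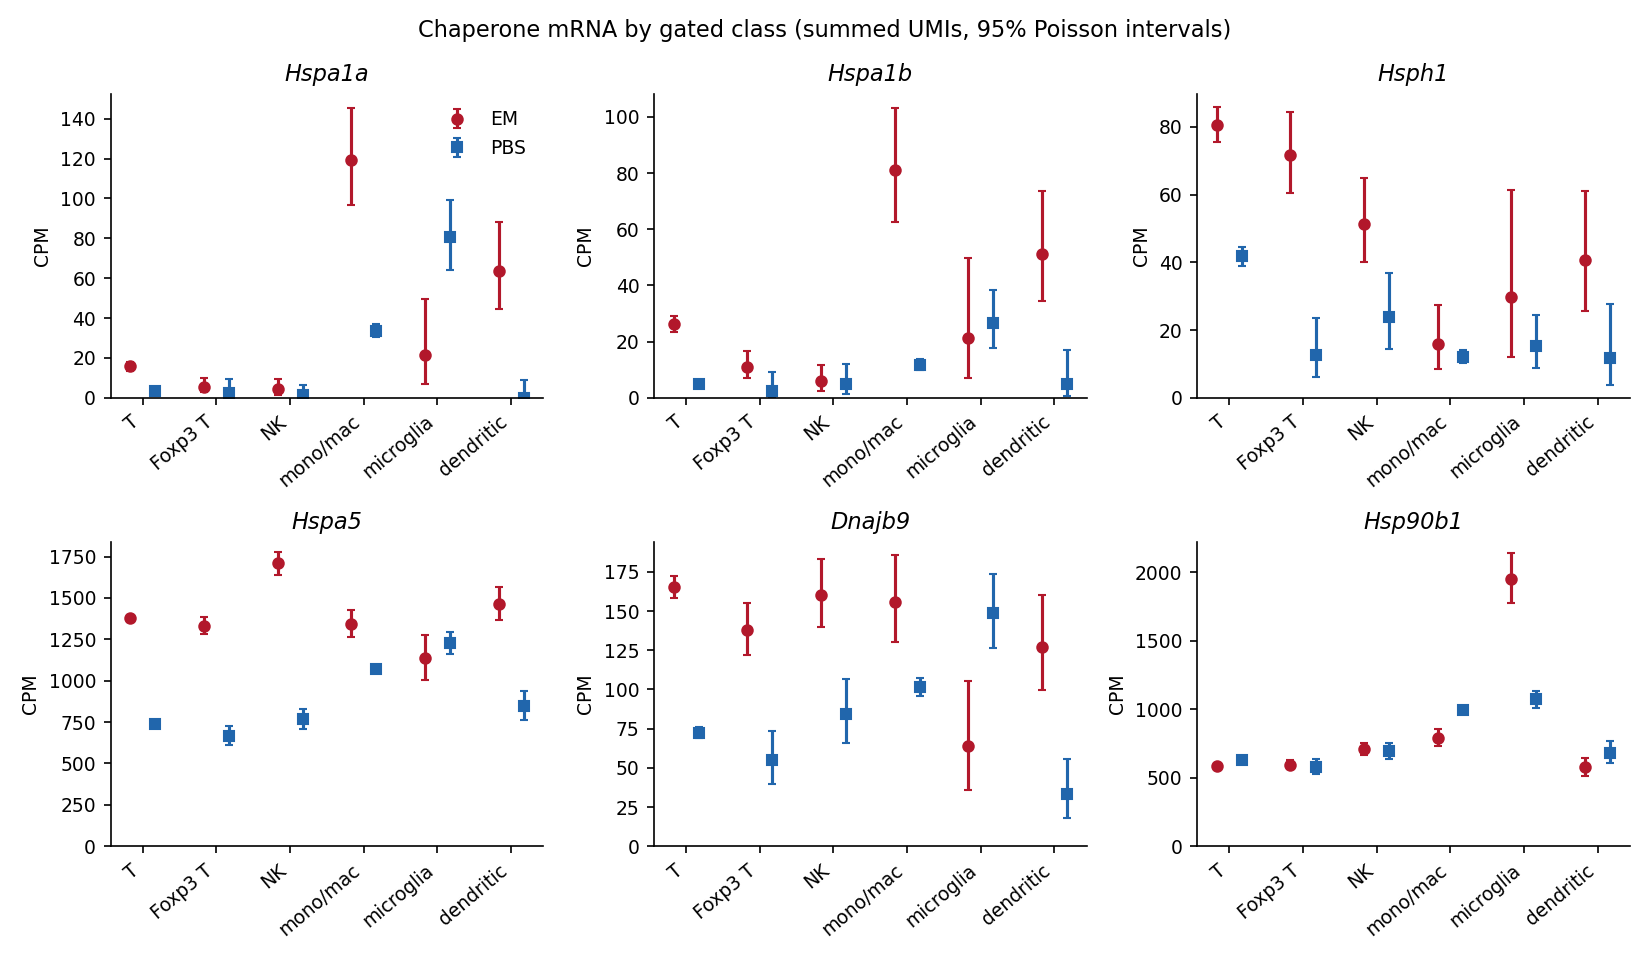
CPM of Hspa1a, Hspa1b, Hsph1, Hspa5, Dnajb9 and Hsp90b1 in 6 gated classes, with EM as red circles left of PBS as blue squares and bars as exact Poisson intervals of 95% on the count. Hspa5 and Dnajb9 lie higher in EM in the lymphoid classes and not above PBS in microglia.

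The HSP70 transcripts were concentrated in few cells. In EM T cells 92 of 4853 (1.90%) held at least 2 UMIs of the pair, against 22 of 3988 (0.552%) in PBS, and those cells held 67.8% of the pair's UMIs in EM and 47.2% in PBS. Cluster 0, which held 33.8% of all EM T cells and more than any other cluster, contained 48 of these 92 EM cells. The same cells had more of other cytosolic chaperones: in EM, Hsph1 was at 160.1 CPM in them and 78.8 CPM in the remaining T cells, Hspa8 at 1824 and 1105 CPM, and Hsp90aa1 at 1575 and 952 CPM. Their early genes summed to 10242 CPM against 7872 CPM in the remaining T cells, their monocyte/macrophage markers to 3578 against 2559.8 CPM, and their T markers to 4896 against 5317 CPM. The monocyte/macrophage list holds Ly6c2, also a leading gene of T cluster 0, so its sum cannot be read as macrophage RNA alone.

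Among monocytes/macrophages 30 EM cells (7.11%) and 110 PBS cells (8.21%) reached 2 UMIs of the pair, and held 85.9% of its UMIs in EM and 73.5% in PBS. Of the EM cells 23 were in cluster 11, led by the monocyte genes Ly6i and Vcan, which held 32.9% of all EM monocytes/macrophages. Of the PBS cells 90 were in cluster 3, led by Mmp13 and Mrc1, which held 65.1% of all PBS monocytes/macrophages. In microglia 2 EM cells and 23 PBS cells (20.2%) reached 2 UMIs of the pair. These shares read depth as well as level. With each cell thinned to 1000 UMIs, which left out 172 EM and 59 PBS monocytes/macrophages and 115 EM and 2 PBS microglia, Hspa1a was detected in 8.40% of EM and 2.73% of PBS monocytes/macrophages, against 11.4% in EM and 16.0% in PBS before thinning. Thinned microglia had Hspa1a in 0 of 78 EM cells, with an exact upper bound of 4.62%, and in 8.04% of 112 PBS cells. Thinned T cells had it in 1.23% in EM and 0.305% in PBS, beside 0.393% of EM and 0.459% of PBS NK cells; the share in EM T cells lies inside the interval of EM NK cells, whose upper bound was 1.41%, and is not separated from it by that measure.

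**Figure D3:**
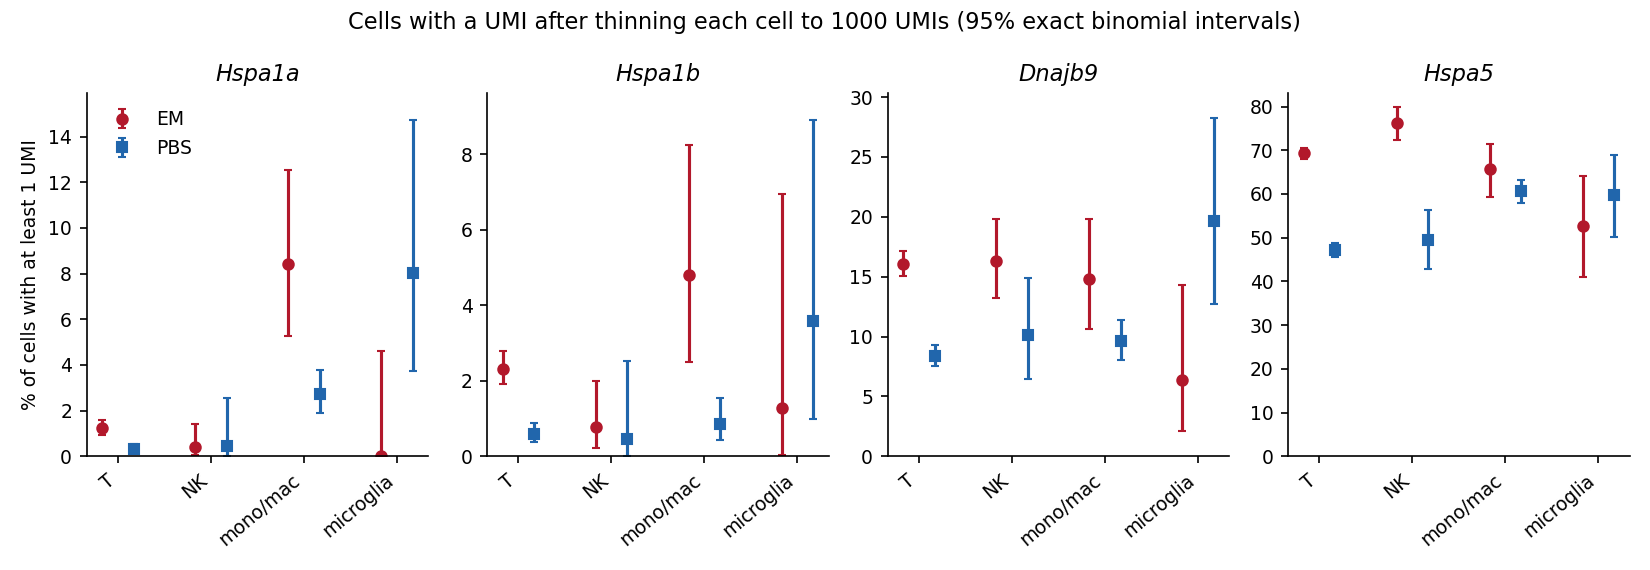
Percent of cells with at least 1 UMI of Hspa1a, Hspa1b, Dnajb9 and Hspa5 after each cell was thinned to 1000 UMIs, EM in red and PBS in blue, with exact binomial intervals of 95%. Hspa5 was detected in 69.3% of EM and 47.2% of PBS T cells, with intervals that do not overlap.

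Hsph1, the HSP110 protein that exchanges nucleotide on HSP70, was higher in EM T and NK cells. It stood at 80.6 CPM in EM and 41.7 CPM in PBS T cells, a log2 ratio of 0.95 (0.82 to 1.08), and at 51.3 CPM in EM and 23.8 CPM in PBS NK cells, a ratio of 1.11 (0.37 to 1.90). Foxp3-positive T cells, a subset of 732 in EM and 161 in PBS, had 71.6 CPM in EM and 12.7 CPM in PBS, a ratio of 2.49 (1.57 to 3.58). In monocytes/macrophages it was at 16.0 CPM in EM and 11.9 CPM in PBS, a ratio of 0.42 (-0.52 to 1.23) that spans equality. Thinning cells to 1000 UMIs brought the NK ratio to 0.22. The other HSP110 members, Hspa4 and Hspa4l, were at -0.16 and -0.08 in T cells.

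The cytosolic HSP90 paralogs had different patterns. Hsp90aa1, the inducible one, stood at 966 CPM in EM and 655 CPM in PBS T cells, 1021 CPM in EM and 531 CPM in PBS NK cells, 749 CPM in EM and 397 CPM in PBS monocytes/macrophages, and 727 CPM in EM and 597 CPM in PBS microglia. It was higher in EM in all 4 classes, with log2 ratios of 0.56 (0.52 to 0.59), 0.94 (0.79 to 1.10), 0.92 (0.79 to 1.04) and 0.28 (0.03 to 0.53); the microglial ratio was 0 to 2 decimals under median-ratio scaling. Hsp90ab1, the constitutive paralog, was at 1791 CPM in EM and 1957 CPM in PBS T cells (-0.13), 1822 CPM in EM and 1612 CPM in PBS NK cells (0.18), and 1054 CPM in EM and 1229.5 CPM in PBS monocytes/macrophages (-0.22), a sign that was positive at 0.22 with cells weighted equally. In microglia it was at 1878 CPM in EM and 1265 CPM in PBS, a ratio of 0.57 (0.41 to 0.73).

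Hspa8, the constitutive HSP70, was at 1121 CPM in EM and 1067 CPM in PBS T cells, a log2 ratio of 0.07 that became -0.12 within clusters shared by both libraries. The NK ratio was 0.60 (0.47 to 0.73), from 1196 CPM in EM and 790.1 CPM in PBS. Monocytes/macrophages gave 0.36 and microglia -0.10 (-0.33 to 0.11). The class A DnaJ protein Dnaja1, a main partner of HSP70, was at 458 CPM in EM and 346 CPM in PBS T cells (0.40), 333 CPM in EM and 183 CPM in PBS monocytes/macrophages (0.86), and 217 CPM in EM and 341 CPM in PBS microglia (-0.65, interval -1.11 to -0.23). Dnajb1, the heat-inducible HSP40, was at 81.7 CPM in EM and 62.9 CPM in PBS T cells, a ratio of 0.38, and at 34.0 CPM in EM and 91.8 CPM in PBS microglia, a ratio of -1.43 (-2.69 to -0.40) that rests on 8 EM UMIs. Dnajb4, its close relative, was at -0.03 in T cells and 0.42 (-0.02 to 0.87) in NK cells.

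Over the fixed list of heat shock factor 1 targets, 7 of 12 measured members were higher in EM T cells with a median of 0.22, 10 of 10 in NK cells with 0.44, 8 of 12 in monocytes/macrophages with 0.34, and 4 of 12 in microglia with -0.21; under median-ratio scaling the counts were 9 in T cells and 3 in microglia. At least 2-fold higher were 2, 1, 2 and 0 of them in that order of classes, and at least 2-fold lower 0, 0, 0 and 3. All genes stood at 5.19%, 5.25%, 9.45% and 8.26% higher and at 11.5%, 7.5%, 20.3% and 26.4% lower, so the 25.0% of the list lower in microglia is near the share of all genes. For the early genes known from tissue dissociation, 10 of 15 were higher in EM T cells, 11 of 14 in NK cells, 7 of 15 in monocytes/macrophages and 0 of 15 in microglia, and median-ratio scaling gave 12 in each of T and NK cells. Summed, they were at 7925 CPM in EM and 4597 CPM in PBS T cells, and at 4419 CPM in EM and 22993 CPM in PBS microglia. The monocyte/macrophage markers, among them Ly6c2, a leading gene of T cluster 0, summed to 2582 CPM in EM T cells and 719 CPM in PBS T cells. All 9 were detected in each library. The part of either in the chaperone ratios was not tested.

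**Figure D4:**
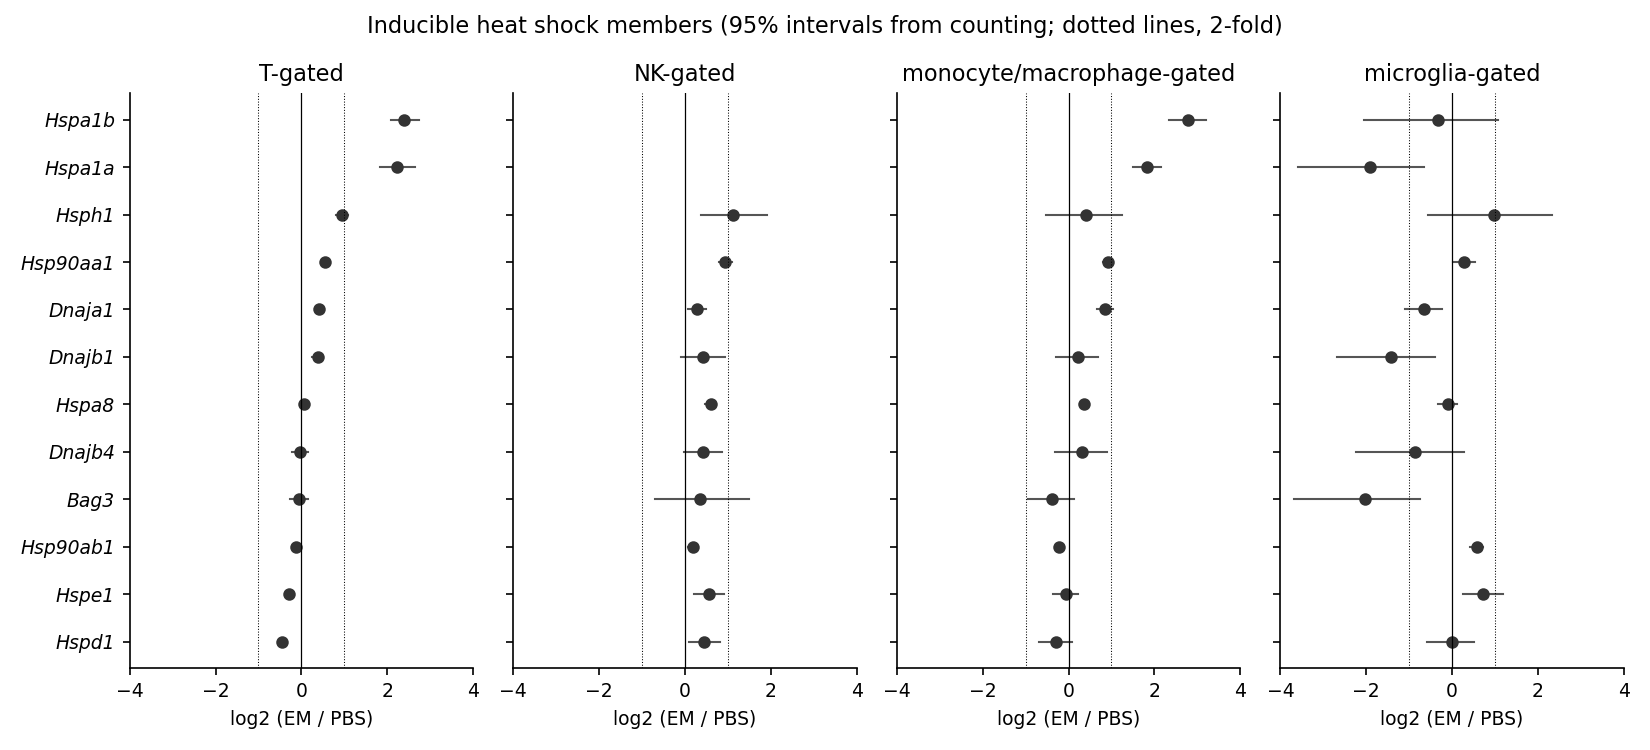
Log2 ratio of EM over PBS CPM for 12 inducible members in T, NK, monocyte/macrophage and microglia cells, with exact intervals of 95% for counting error; Hspa1a and Hspa1b are not shown in NK cells, where each had under 20 UMIs. All 10 members drawn for NK cells lie above 0, and 8 of 12 lie below 0 in microglia.

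Among small heat shock proteins, Hspb8, a partner of Bag3 in selective autophagy, had 0 UMIs in EM and 142 in PBS over all kept cells, at least 21.0-fold lower in EM against a floor of 3 counts in the library. In T cells it had 0 UMIs in EM and 24 in PBS, at least 4.62-fold lower. Bag3, which links HSP70 to that pathway, was at 24.4 CPM in EM and 25.3 CPM in PBS T cells (-0.05, interval -0.26 to 0.15), and at 21.2 CPM in EM and 86.1 CPM in PBS microglia (-2.02, interval -3.68 to -0.74), from 5 EM UMIs. Bag1, a nucleotide exchange factor of HSP70, went the other way in microglia, at 149 CPM in EM and 54.9 CPM in PBS, a ratio of 1.44 (0.79 to 2.07). In T cells, where the median gene was at -0.12, all 6 BAG members had negative ratios, though 4 were positive under median-ratio scaling. The interval lay below 0 for Bag2 (-1.01) and Bag4 (-0.36). Bag4 was also low in monocytes/macrophages, at 7.37 CPM in EM and 21.0 CPM in PBS (-1.51, interval -2.97 to -0.37).

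The CCT chaperonin, whose ring folds actin and tubulin, had 7 of 8 measured members lower in EM T cells. These members run from Cct2 to Cct8, with both Cct6a and Cct6b. The median of all genes was also below 0, at -0.12 in T cells, -0.09 in NK cells, -0.25 in monocytes/macrophages and -0.29 in microglia. Cct7 gave -0.71 (-0.85 to -0.57), from 47.3 CPM in EM and 77.2 CPM in PBS, Cct2 -0.23 (-0.28 to -0.17) and Cct4 -0.28 (-0.36 to -0.21), while Cct6a stood apart at 0.35 (0.28 to 0.41). NK cells had 6 of 7 higher, among them Cct2 at 0.28 (0.05 to 0.52) and Cct5 at 0.40 (0.05 to 0.75). Monocytes/macrophages had 5 of 7 lower, with Cct2 at -0.59 (-0.86 to -0.33) and Cct3 at 0.68 (0.22 to 1.10), and microglia 3 higher and 4 lower (1 higher under median-ratio scaling) with all intervals spanning 0. Subunits of a single complex thus had ratios of both signs in the same cells.

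Further cytosolic members had high or low ratios in single classes. Of these, Dnajc5, the cysteine string protein of secretory vesicles, was lower in all 4 classes, at -0.37 in T cells, -0.71 (-0.98 to -0.43) in NK cells, -0.91 (-1.23 to -0.60) in monocytes/macrophages and -0.68 (-1.27 to -0.13) in microglia. Dnajc13, which acts on endosomes, had -0.27, -0.35, -0.26 and -0.75 in the same order. Hspa14, an HSP70 of the ribosome, was at -0.55 (-0.91 to -0.19) in NK cells and 0.06 in T cells. Hspbap1 gave -1.20 (-2.66 to -0.05) in monocytes/macrophages and 0.51 (0.12 to 0.90) in T cells. Dnajb5 and Dnajc27, which also passed 2-fold lower in monocytes/macrophages, had 1 EM UMI each, and both intervals span 0.

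The mitochondrial chaperonin had ratios of opposite sign in T and NK cells. Hspd1, the HSP60 ring protein, was at 110.2 CPM in EM and 149.9 CPM in PBS T cells, a log2 ratio of -0.44 (-0.54 to -0.35), and at 161 CPM in EM and 118 CPM in PBS NK cells, a ratio of 0.45 (0.10 to 0.81). Its lid Hspe1 was at 163 CPM in EM and 197 CPM in PBS T cells (-0.28, interval -0.36 to -0.20) and 171 CPM in EM and 117 CPM in PBS NK cells (0.55, interval 0.20 to 0.91). Both windows hold the 3-unit heat shock element, as does that of Hsph1, and in T cells they were lower and Hsph1 higher. In microglia Hspe1 was at 229 CPM in EM and 138 CPM in PBS (0.73, interval 0.25 to 1.19) and Hspd1 at 153 CPM in EM and 154 CPM in PBS (-0.01, interval -0.58 to 0.52).

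Hspa9, the mitochondrial HSP70 that drives protein import, was lower in EM in all 4 classes (0.04 in NK cells under median-ratio scaling), at 60.1 CPM in EM and 89.1 CPM in PBS T cells (-0.57, interval -0.69 to -0.44), 79.1 CPM in EM and 84.5 CPM in PBS NK cells (-0.09, interval -0.54 to 0.36), 41.8 CPM in EM and 75.1 CPM in PBS monocytes/macrophages (-0.85, interval -1.39 to -0.35) and 72.2 CPM in EM and 102 CPM in PBS microglia (-0.50, interval -1.33 to 0.24). Its DnaJ partner at the import channel, Dnajc19, was higher in all 4, from 0.11 (-0.40 to 0.59) in monocytes/macrophages to 1.12 (0.12 to 2.05) in microglia. Dnajc15, a paralog of Dnajc19, gave -0.07, -0.27, 0.22 and 0.44 in T, NK, monocyte/macrophage and microglia cells, with every interval spanning 0. Of the fixed mitochondrial folding and protease genes outside the members, 2 of 9 were higher in EM T cells, 2 of 8 in NK cells, 2 of 9 in monocytes/macrophages and 1 of 7 in microglia; median-ratio scaling gave 3 in T cells, 6 in NK cells and 0 in microglia. Clpp, the matrix protease, was at -0.85 in T cells. The median of all genes was below 0 in each of the 4 classes, so a surplus of lower genes is not read as a trait of this list.

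ER members were led by Hspa5 (BiP), the ER HSP70 at chr2:34771970-34777547 that holds the stress sensors inactive. It stood at 1377 CPM (interval 1356 to 1398) in EM T cells and 740.2 CPM (interval 729 to 752) in PBS T cells, a log2 ratio of 0.90 (0.86 to 0.93). NK cells had 1709 CPM in EM and 767 CPM in PBS (1.16, interval 1.03 to 1.28), Foxp3-positive T cells 1332 CPM in EM and 669 CPM in PBS (0.99, interval 0.86 to 1.13), and dendritic cells 1463 CPM in EM and 846 CPM in PBS (0.79, interval 0.61 to 0.97). The difference was smaller in monocytes/macrophages, at 1345 CPM in EM and 1074 CPM in PBS (0.33, interval 0.24 to 0.41), and in microglia, at 1134 CPM in EM and 1226 CPM in PBS, the interval of -0.31 to 0.08 spans equality. Among the 4 compared classes, EM ran from 1134 CPM in microglia to 1709 CPM in NK cells and PBS from 740.2 CPM in T cells to 1226 CPM in microglia, with the order of these classes changed. After thinning, Hspa5 was detected in 76.2% of EM and 49.5% of PBS NK cells.

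Dnajb9, an ER DnaJ protein and co-chaperone of Hspa5 in the unfolded protein response, was higher in the same 3 classes. It was at 165 CPM in EM and 72.5 CPM in PBS T cells (1.19, interval 1.09 to 1.28), 160.4 CPM in EM and 84.5 CPM in PBS NK cells (0.93, interval 0.53 to 1.33), and 156 CPM in EM and 101 CPM in PBS monocytes/macrophages (0.62, interval 0.35 to 0.89). That last ratio was 1.30 within shared clusters and 0.19 with equal weight per cell. In microglia it was lower, at 63.7 CPM from 15 UMIs in EM and 149 CPM from 157 UMIs in PBS, a ratio of -1.22 (-2.09 to -0.46). Thinned T cells held a Dnajb9 UMI in 16.1% in EM and 8.35% in PBS, whereas before thinning the shares were 30.7% in EM and 29.9% in PBS. Dnajb11, which works with Hspa5 on secreted proteins, was higher in all 4 classes, at 0.33 (0.21 to 0.45), 0.44 (-0.06 to 0.96), 0.49 (0.16 to 0.81) and 0.60 (-0.16 to 1.32).

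Hsp90b1 (GRP94), the ER HSP90 that folds Toll-like receptors and integrins, had another pattern than Hspa5, and both windows hold the ER stress element. It was at 587 CPM in EM and 626 CPM in PBS T cells (-0.09, interval -0.13 to -0.05), 707 CPM in EM and 695 CPM in PBS NK cells (0.02, interval -0.12 to 0.18), and 794 CPM in EM and 996 CPM in PBS monocytes/macrophages (-0.33, interval -0.44 to -0.21, but 0.14 with equal weight per cell). In microglia it was higher, at 1954 CPM in EM and 1072 CPM in PBS (0.87, interval 0.71 to 1.02). Dnajc3, which restrains the kinases of the integrated stress response and carries the element too, was at 0.05 (-0.02 to 0.12) in T cells, -0.83 (-1.15 to -0.52) in monocytes/macrophages and 0.57 (0.11 to 1.02) in microglia. Dnajc10, an ER reductase, was lower in all 4 classes, from -0.33 in T cells to -0.67 in monocytes/macrophages. Dnajc16 and Dnajb14 were also lower in all 4, Dnajc16 at -1.67 (-2.89 to -0.68) in monocytes/macrophages. Dnajc1 was at -0.58 (-0.87 to -0.29) in NK cells and 0.01 in T cells.

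Genes of the ER stress and folding list outside the members varied by class. In T cells 11 of 18 were higher in EM with a median of 0.24, led by Atf4 (0.76), a stress transcription factor, and Pdia4 (0.60), a disulfide isomerase, while the sensors Ern1 and Atf6 were at -0.76 and -0.76. In NK cells 13 of 18 were higher, with Pdia4 at 1.57, Ddit3 at 1.25 and the sensor Eif2ak3 at -1.51. Monocytes/macrophages had 6 of 18 higher (5 to 7 over the scalings) and a median of -0.13. Microglia had 9 of 18 and 0.11, with Pdia4 at 115 CPM in EM and 28.4 CPM in PBS (2.01, interval 1.21 to 2.81) and Sdf2l1, a partner of ER DnaJ proteins, at 1.76 (1.08 to 2.44). At least 2-fold higher were 0, 4, 0 and 5 of the list in T, NK, monocyte/macrophage and microglia cells, and at least 2-fold lower 0, 2, 1 and 1, beside 5.19%, 5.25%, 9.45% and 8.26% of all genes higher and 11.5%, 7.5%, 20.3% and 26.4% lower.

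Cytosolic co-chaperones outside the members were read from a fixed list of heat shock factors and HSP90 partners. Fkbp5, the HSP90 co-chaperone induced by glucocorticoid, was lower in EM in all 4 classes, at 41.7 CPM in EM and 129 CPM in PBS T cells (-1.63, interval -1.77 to -1.49), 60.1 CPM in EM and 143 CPM in PBS NK cells (-1.25, interval -1.67 to -0.83), 49.1 CPM in EM and 241 CPM in PBS monocytes/macrophages (-2.30, interval -2.78 to -1.85) and 59.5 CPM in EM and 349 CPM in PBS microglia (-2.55, interval -3.44 to -1.79). Chordc1, an HSP90 partner, was higher in T cells at 98.5 CPM in EM and 48.7 CPM in PBS (1.02, interval 0.89 to 1.14), in NK cells (1.17, interval 0.60 to 1.78) and in monocytes/macrophages (1.02, interval 0.54 to 1.46). Of the whole list 6 of 15 measured genes were higher in EM T cells, 9 of 15 in NK cells, 6 of 15 in monocytes/macrophages and 6 of 11 in microglia; median-ratio scaling gave 10 in T cells and 5 in microglia.

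T cells of the libraries fell largely in different clusters, so ratios were also taken inside the 6 T clusters with at least 100 cells of each library. Hspa5 was higher in EM in 6 of 6, with ratios of 0.47 to 1.05, as were Dnajb9 (0.69 to 1.48), Hsph1 (0.72 to 1.91), Hsp90aa1 (0.20 to 0.84) and Dnaja1 (0.20 to 0.62), each with its interval above 0 in all 6. Dnajb1 was higher in 6 of 6 with 2 intervals above 0, and Dnajc3 in 6 of 6 with 1. Several other members were mixed or mostly lower. Hsp90ab1 was higher in 3 of 6, Hspa8 in 2, and Cct2 and Bag3 in 1 each. Hspa1a and Hspa1b were higher in the 5 clusters that gave a ratio, where 2 intervals for Hspa1a and 3 for Hspa1b lay above 0; in the remaining cluster PBS held 0 UMIs of the gene. Hspd1 and Hspa9 were lower in 5 of 6. In cluster 7, led by the proliferation genes Cenpf, Top2a and Mki67, Hspa5 was at 1119.9 CPM in EM and 809 CPM in PBS, and in cluster 2, led by Foxp3 and Il2ra, at 1386 CPM in EM and 672 CPM in PBS. The 5 members with every interval above 0 were thus higher inside clusters as well as over the class. All clusters come from the same libraries, so they are not independent of each other. The share of all genes higher in all 6 was not taken. None of these 6 had a gene of the T list among its leading genes, which is why values are also given by cluster number. Those of cluster 0 held Ly6c2, of the monocyte/macrophage list, beside Gzmk and Gzma, and 99.7% of its gated cells were T cells.

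**Figure D5:**
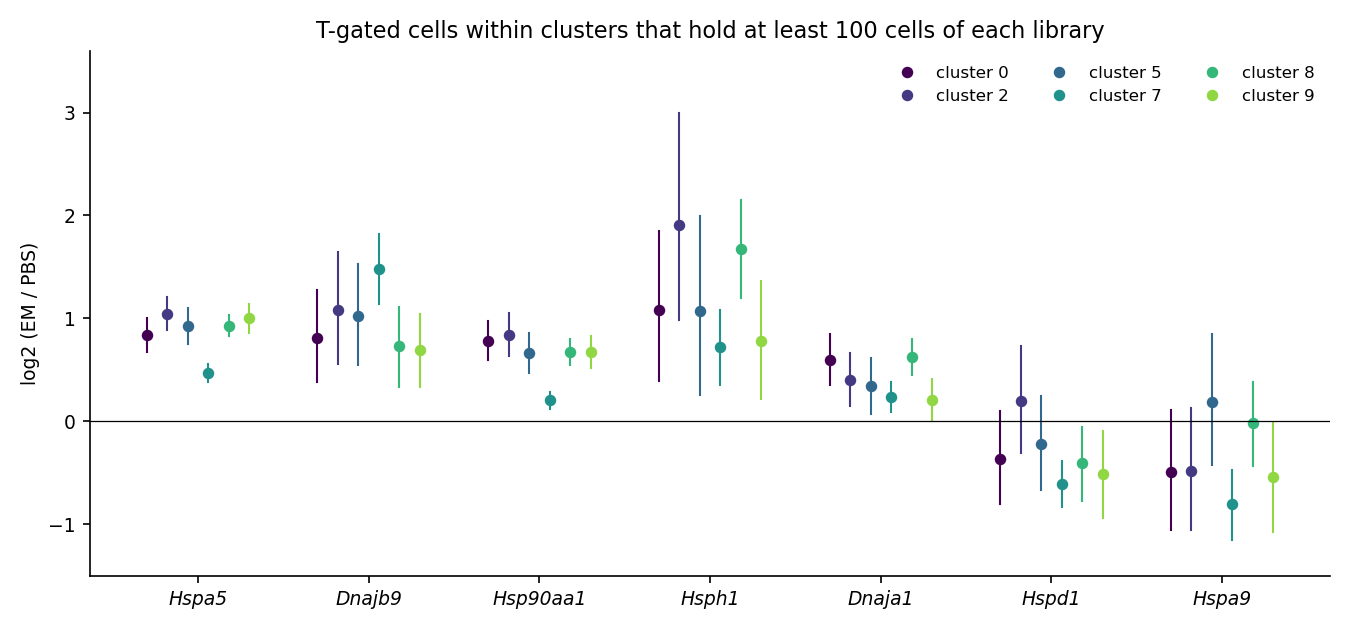
Log2 ratio of EM over PBS CPM of Hspa5, Dnajb9, Hsp90aa1, Hsph1, Dnaja1, Hspd1 and Hspa9 in T clusters 0, 2, 5, 7, 8 and 9, with exact intervals of 95% for counting error. The 5 members named first lie above 0 in every cluster drawn, and Hspd1 and Hspa9 lie below 0 in 5 of 6.

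Monocytes/macrophages could be compared inside clusters 11 and 12. In cluster 11 Hspa1a was at 163 CPM in EM and 40.7 CPM in PBS (2.01), Hspa1b at 117 CPM in EM and 17.4 CPM in PBS (2.74) and Dnajb9 at 206 CPM in EM and 63.9 CPM in PBS (1.69), while Hsp90ab1 (-1.09) and Hspd1 (-1.59) were lower. In cluster 12, which holds most EM cells of the class, Hspa1a had 0 UMIs in EM and 9.88 CPM in PBS. The larger cluster of EM cells thus held no Hspa1a UMI. Cells of cluster 12 had a median of only 995 UMIs over both libraries, so the 0 is not read as a level below that of PBS.

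Across the 4 classes 53 members were measured in all. Higher in EM in each were 5, Hsp90aa1, Hsph1, Dnajb11, Dnajc9 and Dnajc19, and lower in each were 9, Hspa9, Dnajc5, Dnajc10, Dnajc13, Dnajc16, Dnajc24, Dnajb14, Bag4 and Bag5; intervals for single classes often span 0, and under median-ratio scaling Hsp90aa1 in microglia, Hspa9 in NK cells and Bag5 in T and NK cells changed sign. Those are 9.43% and 16.98% of the 53 members, neither above the 11.3% and 25.8% of all 6264 genes measured in the 4 classes that were higher or lower in each. Hspa5, Dnajb9, Hspa8, Dnaja1 and Dnajb1 were higher in T, NK and monocyte/macrophage cells and lower in microglia. The microglial interval lay below 0 for Dnajb9, Dnaja1 and Dnajb1 but spanned 0 for Hspa5 and Hspa8. In T cells Hspa8 was at -0.12 within shared clusters. These members were picked by this pattern, and the share of all genes with it was not taken. Whether ratios differ between classes beyond the variation between animals could not be tested with 1 library per group. The microglial contrast also compares cells of unequal depth in different clusters, and EM microglia carried 12797 CPM of their own markers against 4874 CPM in PBS. Not measured in any compared class were Hspa12a, Hspa1l and Dnajc28.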

How the data were processed

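Single-cell libraries of tumour, 1 for EM and 1 for PBS, were deposited by the authors as matrices of raw UMI counts per gene and cell; CASAVA 1.8, STARsolo and mm10 are named in the submitters' processing notes, and neither the annotation nor the calling of cells is. Cells with at least 500 UMIs, at least 200 genes and at most 20% mitochondrial UMIs were kept. A cell was gated to the class with the highest share of its markers detected, with at least 2 marker genes and a lead of 0.2; the gate was set after the data were seen, and 17.6% of EM and 16.8% of PBS cells stayed ungated. No doublet caller was run; an alternative left out the 6% of cells with most UMIs. UMIs were summed per class and library, and ratios used genes with at least 20 UMIs in the class. CPM intervals were exact Poisson and ratio intervals exact conditional binomial at 95%, which held the simulated ratio for 95.5% of 13045 genes in T cells and 96.9% of 7216 in microglia, with 200 genes changed. The simulated counts were Poisson draws, the model that the intervals assume. That check covers the calculation only, and not the spread of these data between cells or animals. Clusters (scanpy 1.11.5, leidenalg 0.10.2; 2000 variable genes, 30 components, 15 neighbours, resolution 1) left out the 90 symbols. Other tools were Python 3.11.15, numpy 2.4.6, scipy 1.17.1, pandas 2.3.3 and matplotlib 3.10.9. Named members are the inducible list, the 5 highest per compartment, the 3 highest and 3 lowest ratios per class with at least 100 UMIs and an interval clear of 0, and, chosen after their values were seen, members past 2-fold, members with 1 sign in all classes and the partners described beside them. The 4 lists outside the members give at most their 2 highest and 2 lowest genes per class, and Foxp3 T and dendritic cells were added after the values were seen. Members and lists were chosen with earlier results of these data known. The values of 1 member are not reported here.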

Additional observations from a re-analysis of the deposited data

Results flagged for a closer look

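Dnajb9 and Hspa1a were at least 2-fold higher in EM in T cells and at least 2-fold lower in microglia, with intervals clear of 0. Members of opposite sign that did not reach 2-fold in both directions are not listed here. An example is Hspd1, at -0.44 in T cells and 0.45 in NK cells. The log2 ratio of EM over PBS for Dnajb9 was 1.19 in T cells and -1.22 in microglia. For Hspa1a it was 2.23 in T cells and 1.83 in monocytes/macrophages, against -1.92 in microglia, where the alternatives ranged from -4.30 to -1.25. The difference between classes was not tested, since each group is 1 library. Median UMIs per microglial cell were 899 in EM and 7866 in PBS, and the summed early genes were lower in EM microglia; their part in these ratios was not tested.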

How the results depend on the processing

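Over 12 alternatives, the 20 counts and medians of members gave 235 values, of which 216 stayed near the value reported and 19 moved. In T cells 2 members were at least 2-fold lower with a mitochondrial limit of 10%. In NK cells the count higher was 4 with Leiden clusters as classes and 4 with median-ratio scaling, and 7 when members needed only 1 UMI in each library; the count lower was 4 with equal weight per cell, 1 with 1000 UMIs per cell, 0 with a minimum of 50 UMIs and 5 with 1 UMI in each library. In monocytes/macrophages the count higher was 4 with Leiden clusters, 1 with equal weight and 5 with 1000 UMIs per cell. In microglia the count higher was 9 with Leiden clusters, 5 with the 10% limit, 7 without the 6% of cells with most UMIs, 8 with 1 UMI in each library, and 1 with each of 1000 UMIs per cell, median-ratio scaling and at least 50 UMIs; the count lower was 2 with 1000 UMIs per cell. Of 691 values of named members 585 stayed, 100 moved and 6 changed sign. These were Hsp90b1 in T cells (0.023 with 1000 UMIs per cell), Hspa8 in T cells (-0.12 in shared clusters), Hsp90b1 in monocytes/macrophages (0.14 with equal weight), Hsp90ab1 there (0.011 with Leiden clusters, 0.22 with equal weight) and Hsp90aa1 in microglia (-0.000158 with median-ratio scaling). The causes were not tested. Of the 12 compartment medians 7 took both signs, so none is read as a direction. Shared clusters gave no microglia value. No paired analysis was possible because each group is 1 library, and for the same reason no replicate could be left out.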

Other observations

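For basophils/mast cells, plasmacytoid dendritic cells, plasma cells, B cells and neutrophils, absent from or few in at least 1 library, only levels are given. Hspa5 was at 3378 CPM in 153 EM basophils/mast cells, 2540.4 CPM in 172 EM plasmacytoid dendritic cells, and 2104 CPM in 24 EM and 1199 CPM in 54 PBS plasma cells, which secrete antibody. Hsp90b1 was at 1784 CPM in EM plasmacytoid dendritic cells and at 2706 CPM in EM and 3056 CPM in PBS plasma cells. In B cells, 66 in EM and 46 in PBS, it was at 552 CPM in EM and 4672 CPM in PBS, but a single PBS cell held 92.5% of those PBS UMIs. Neutrophils, 2 in EM and 647 in PBS, had 41.1 CPM of Hspa1a in PBS.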
